A study of Gossypium hirsutum with 6 samples.

Results

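The peaks described here are the H3K27me3 peaks of cotton leaves that lay far from any H3K4me3 peak. They were the peaks of H3K27me3 replicate 1 on chromosomes A01 to A13 and D01 to D13 that shared at least 1 bp with the second H3K27me3 list and whose edges were at least 50 kb from every peak of both H3K4me3 lists. This rule found 408 peaks, called far peaks below, which were 2.16% (95% exact binomial interval 1.96 to 2.38%) of the 18871 repeated H3K27me3 peaks on the chromosomes. The remaining 18463 repeated peaks are called other peaks and served for comparison. The far peaks were chosen by their measured distance to H3K4me3 and their overlap with the second list, so these are given as a description only.

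The samples were 2 H3K27me3 libraries, 2 H3K4me3 libraries and 2 input libraries without antibody, made by chromatin immunoprecipitation and sequencing (ChIP-seq) of nuclei digested with micrococcal nuclease from untreated TM-1 plants grown in a greenhouse. TM-1 is a line of upland cotton (Gossypium hirsutum), an allotetraploid with 13 A and 13 D chromosomes in its haploid set. Leaves were 20 days old in all groups, and whether the 2 libraries of a group came from separate plants is not given in the sources used here. A list of peak positions was used for each of the 4 antibody libraries, and the lists hold no heights and no read numbers, so that the depth behind a peak is unknown.

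The replicate 2 lists were taken by the mark in the name under which they were deposited, which is the other mark than in the label of the sample. The list with the H3K27me3 name, labelled H3K4me3 replicate 2, is called the broad replicate 2 list here. Its median width was 1230.5 bp, next to 1379 bp for H3K27me3 replicate 1. The list with the H3K4me3 name, labelled H3K27me3 replicate 2, is called the narrow replicate 2 list, with a median width of 474 bp next to 495 bp for H3K4me3 replicate 1. If the labels of the samples were followed instead, 1 peak would meet the rule.

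H3K27me3 is placed on histone H3 by Polycomb repressive complex 2, whose catalytic subunits in Arabidopsis are CURLY LEAF, SWINGER and MEDEA, and it is removed by Jumonji demethylases such as REF6. It keeps developmental and conditional genes silent, and in plants its domains often cover single genes. H3K4me3 is deposited near the start of transcribed genes by Trithorax-type methyltransferases. Sequence without H3K4me3 is often poor in transcribed genes, and in many plants much of it is pericentromeric heterochromatin, which is usually marked by H3K9me2 and DNA methylation rather than H3K27me3. Leaves contain several cell types, and a peak list does not show in which of them a mark was present.

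Most far peaks lay just beyond the limit of 50 kb. The median distance to the nearest H3K4me3 peak was 71.9 kb, and 301 of the 408 far peaks (73.8%) were 50 to 100 kb away. A further 80 were 100 to 200 kb away and 27 were at least 200 kb away. The far peak closest to the limit lay 50.035 kb from H3K4me3 on chromosome D09 (8052143 to 8055297), and the closest one of the A subgenome lay 50.091 kb away on chromosome A13 (3624823 to 3625051). Just outside the limit were an other peak at 49.547 kb on chromosome A03 (23998244 to 23999395) and an other peak at 49.895 kb on chromosome D11 (27054249 to 27057650). These 4 peaks were 3155, 229, 1152 and 3402 bp wide, in the order given, so the limit separates neighbours of a continuous range. Positions are counted from 1 in the published TM-1 genome to which the reads were aligned. Neither its sequence nor its gene models were used, and no gene is therefore named.

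The list that set the distance was mostly H3K4me3 replicate 1. It held the nearest H3K4me3 peak for 313 far peaks, against 94 for the narrow replicate 2 list, and both were equally near for 1. With distances to the narrow replicate 2 list alone, 3181 repeated H3K27me3 peaks lay at least 50 kb away. Of these, 2773 had an H3K4me3 replicate 1 peak closer than 50 kb, and 1214 of the 2773 (43.8%) overlapped one. With distances to H3K4me3 replicate 1 alone, the number was 453, of which the narrow replicate 2 list removed 45. The number of far peaks thus rests on H3K4me3 replicate 1, whose peaks did not have to be repeated. It was the longer list, with 69877 peaks on the chromosomes (39.8 Mb), against 42643 (22.3 Mb) in the narrow replicate 2 list.

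Repeated H3K27me3 peaks were rarer at longer distances from H3K4me3. At 25 to 50 kb there were 1.91 repeated peaks per Mb of sequence at that distance on A chromosomes and 4.42 on D chromosomes. At 50 to 100 kb there were 0.842 per Mb on A chromosomes (139 peaks) and 2.35 on D chromosomes (162 peaks), and at 100 to 200 kb 0.350 on A (49 peaks) and 1.11 on D (31 peaks). Beyond 200 kb there were 19 peaks on A (0.164 per Mb) and 8 on D chromosomes (1.28 per Mb), where so few peaks give no order. The density on A chromosomes was below that on D chromosomes in every class of distance shown. This profile describes the sequence around the threshold and was not tested.

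**Figure D1:**
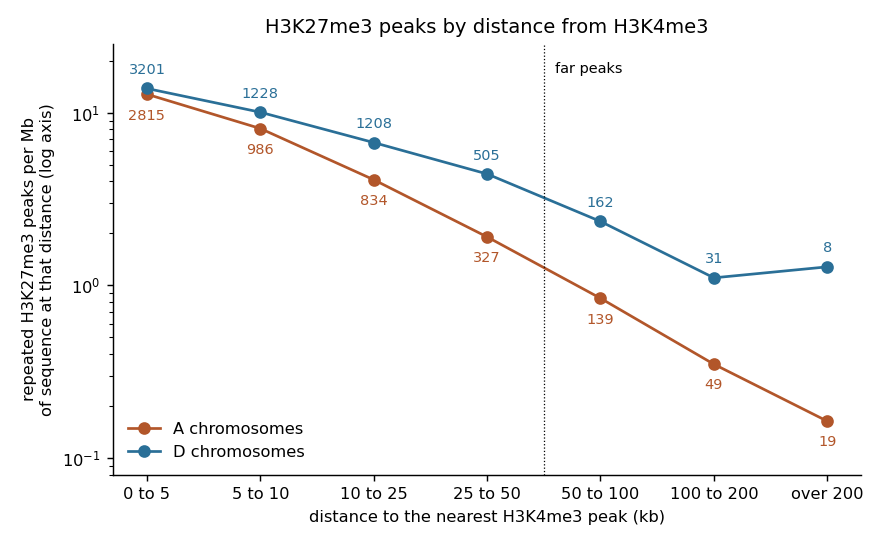
Repeated H3K27me3 peaks per Mb of sequence (log axis) against distance to the nearest H3K4me3 peak in kb, for A and D chromosomes, without peaks that overlap H3K4me3. Numbers beside the points are peaks, and far peaks are right of the dotted line, where densities at 50 to 100 kb were 0.842 on A and 2.35 on D chromosomes.

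Far peaks were nearly equal in number in both subgenomes, with 207 on A and 201 on D chromosomes. The A share was 50.7% (45.8 to 55.7%) of far peaks and 44.8% (44.1 to 45.5%) of other peaks. Numbers per chromosome ranged from 6 on A03 to 26 on A07 in the A subgenome, with a median of 15, and from 6 on D04 to 28 on D11 in the D subgenome, with a median of 12. Of the 13 pairs of A and D chromosomes with the same number, 6 had more far peaks on A and 7 had more on D. Chromosomes of the same number often differed: A04 had 25 far peaks and D04 had 6, A07 had 26 and D07 had 8, while A11 had 9 and D11 had 28.

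The sequence in which a far peak could lie was much longer in the A subgenome. Between the outermost peaks of each chromosome, 421 Mb of A chromosomes (36.3% of their length) and 103 Mb of D chromosomes (13.3%) were at least 50 kb from every H3K4me3 peak. It ranged from 21.8 Mb (A05) to 45.7 Mb (A06) on A chromosomes and from 5.40 Mb (D07) to 10.0 Mb (D06) on D chromosomes, so that the ranges did not overlap. These lengths, and all densities per Mb given here, count every base, whether or not reads could be placed there. How much of the sequence reads could be placed on was not measured in either subgenome. Per Mb of sequence at least 50 kb from H3K4me3 there were 0.491 far peaks on A and 1.95 on D chromosomes. The log2 ratio of A to D density was -1.95 ± 0.97 (SD over 13 chromosome pairs), with a lower density on A in 12 of 13 pairs. It passed the threshold of 0.05 (two-sided exact permutation test of the signs of the pairs, p = 0.000488, adjusted p = 0.00220 by the Benjamini-Hochberg method over 9 tests). The exception was pair 4, with 1.05 far peaks per Mb on A04 and 0.960 on D04. Pairs were made by chromosome number alone, and pairs 4 and 5 were not crossed in any alternative. A05 had 0.550 and D05 had 3.35 per Mb, so A04 was below D05 and A05 below D04. The exception therefore depends on the pairing by number. By number of peaks, without sequence length, the mean log2 ratio was 0.06 and did not pass (exact permutation adjusted p = 0.834).

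Other peaks were also less dense on A chromosomes, by a smaller amount. Outside the sequence far from H3K4me3 there were 11.2 other peaks per Mb on A and 15.2 on D chromosomes, a log2 ratio of -0.44 ± 0.15, lower on A in 13 of 13 pairs (exact permutation p = 0.000244, the smallest that 13 pairs can give, adjusted p = 0.00220). The A to D log2 ratio was lower for far peaks than for other peaks by 1.51 ± 0.92 in the mean, and this held in 12 of 13 pairs (difference -1.51, exact permutation p = 0.000732, adjusted p = 0.00220). When only far peaks and sequence 50 to 100 kb from H3K4me3 were used, a choice made after the values were seen, the ratio for far peaks was -1.49 ± 1.12 (exact permutation adjusted p = 0.00220). Other peaks were not alike in this: without H3K4me3 overlap, densities per Mb were 12.8 on A and 13.8 on D at 0 to 5 kb. At 25 to 50 kb they were 1.91 and 4.42, so the lower density on A is not particular to far peaks. Chromosome pairs are not biological replicates, and these tests describe how the peaks of 1 library, repeated in another, were spread over chromosomes.

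**Figure D2:**
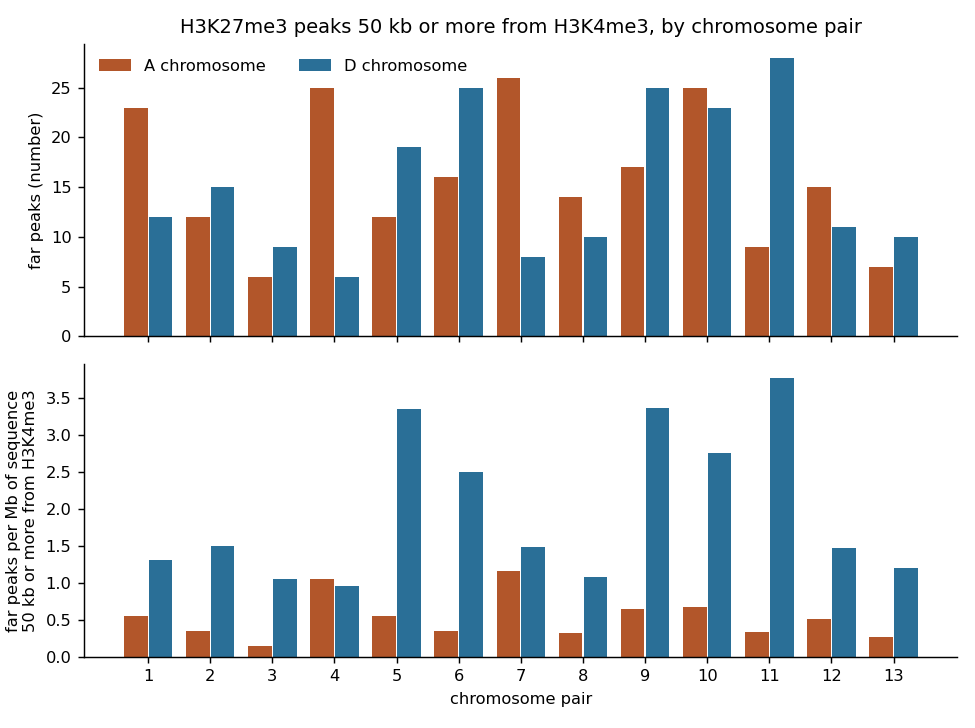
Far H3K27me3 peaks on the A and D chromosome of each of the 13 pairs, as numbers (top) and per Mb of sequence at least 50 kb from H3K4me3 (bottom). Numbers were higher on A in 6 pairs and on D in 7, while density was lower on A in 12 of 13 pairs.

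Along the chromosomes, far peaks lay further inward than other peaks. Position was measured from 0% at the nearer outermost peak to 100% at the midpoint of the chromosome. On A chromosomes the median position was 40.3% (quartiles 28.4 and 67.0%) for far peaks and 17.8% (7.38 and 38.5%) for other peaks. On D chromosomes it was 45.6% (30.7 and 67.3%) for far peaks and 24.9% (10.8 and 49.0%) for other peaks. In each of the 13 pairs the median position of far peaks was further in. Position follows the places where H3K4me3 is sparse, which the rule used, so no test was made.

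Far peaks were spread differently from the sequence that was open to them, which is a description with no test. The inner 50% of the way to the midpoint held 74.9% of this sequence on A chromosomes and 82.3% on D chromosomes, but 39.6% of the far peaks of A (82 of 207) and 42.8% of those of D (86 of 201). The densest part of A chromosomes lay at 10 to 20%, with 2.20 far peaks per Mb of such sequence, and the sparsest at 80 to 90%, with 0.0602 per Mb (4 peaks). On D chromosomes the densest part was the outermost 10%, with 9.09 per Mb (14 peaks), followed by 8.68 per Mb at 30 to 40% and 8.36 per Mb at 20 to 30%, and the sparsest was at 90 to 100%, with 0.702 per Mb. The outermost 10% of A chromosomes held 5 far peaks.

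On A chromosomes, far peaks were again more numerous next to the midpoint, where the innermost 10% held 30 of them (14.5%), against 4 in the bin before. On D chromosomes the innermost 10% held 14 (6.97%). Of the 30 peaks on A, 10 lay on chromosome A07, in 3 groups that were picked out after their positions were seen. The first group had 3 peaks within 3.55 kb (35840319 to 35843872), all under a single peak of 4380 bp in the broad replicate 2 list. The next had 3 peaks within 12.5 kb (38206633 to 38219108), and the broad replicate 2 list covered between 40.4 and 80.1% of them. The last had 4 peaks within 75.8 kb (41393964 to 41469805), covered to between 26.3 and 58.6%, next to a mean of 80.4% over all far peaks.

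**Figure D3:**
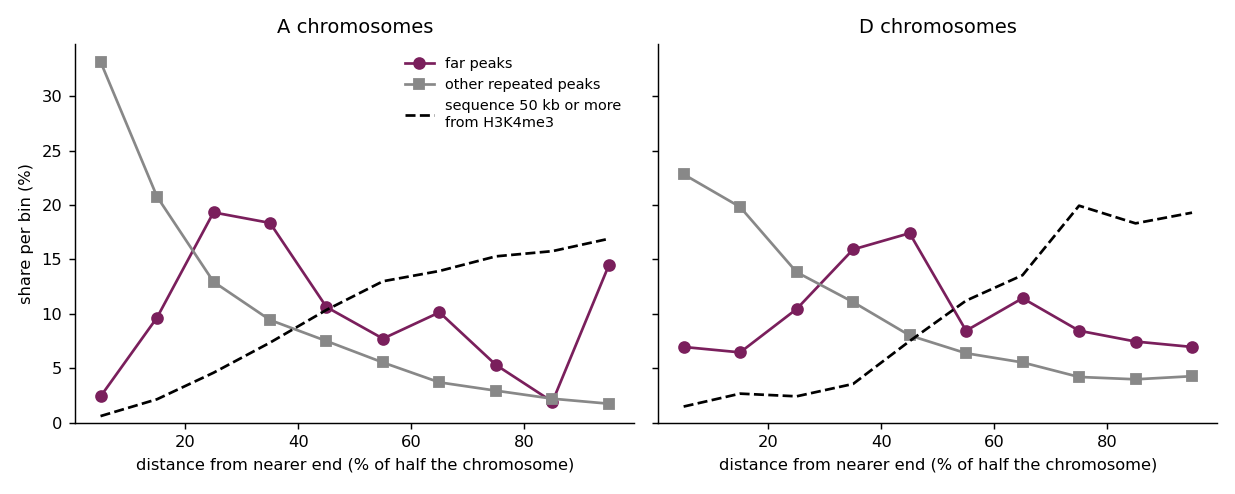
Share of far peaks, of other repeated peaks and of the sequence at least 50 kb from H3K4me3 in 10 bins along the chromosome, from the outermost peak (0%) to the midpoint (100%), for A (left) and D (right) chromosomes. Far peaks peak at 20 to 30% on A (19.3%) and at 40 to 50% on D (17.4%), while the dashed line of sequence rises inward.

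Far peaks had a median width of 1330 bp in replicate 1, with quartiles of 694 and 2612 bp and a range of 200 to 17725 bp. Other peaks had a median of 1566 bp, quartiles of 775 and 3149.5 bp and a range of 200 to 38193 bp. The ranges overlapped. Peaks of at least 5 kb made up 8.33% (5.84 to 11.5%) of far peaks and 12.4% (11.9 to 12.9%) of other peaks, and peaks of at least 8 kb made up 1.47% (0.542 to 3.17%) and 4.72% (4.42 to 5.04%) in the same order. Of the other peaks that overlapped no H3K4me3, 6.06% (5.62 to 6.52%) reached 5 kb, below the share among far peaks but within its interval. The share of this set that reached 8 kb was 1.93% (1.68 to 2.20%), above that of far peaks and again within its interval. Far peaks covered 0.824 Mb and other peaks 46.1 Mb. The intervals here cover counting error alone and take each peak as a separate draw.

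Within chromosomes, the median width of far peaks was below that of other peaks on 16 of 26 chromosomes. The log2 ratio of far to other medians was -0.17 ± 0.54 over the 13 pairs, lower in 10 of 13, and did not pass the threshold (exact permutation p = 0.285, adjusted p = 0.346). In the broad replicate 2 list, the peaks under far peaks had a summed width with a median of 1453.5 bp, against 1916 bp under other peaks. A replicate 2 peak counted here for each replicate 1 peak that it overlapped. Distinct replicate 2 peaks, taken singly, had median widths of 1244 bp under far and 1635 bp under other peaks. The log2 ratio of summed widths was -0.33 ± 0.45, lower in 10 of 13 pairs, and passed the threshold (exact permutation p = 0.0269, adjusted p = 0.0403). Both groups had to overlap this list by the rule, so the test covers repeated peaks only. This call was lost when any of 10 of the 13 chromosome pairs was left out, when H3K4me3 replicate 1 was left out (log2 ratio -0.03), and when members were taken from the broad replicate 2 list (-0.21).

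The comparison of widths depended on which other peaks were used. Other peaks that overlapped H3K4me3 had a median width of 2451 bp (7359 peaks), while those that overlapped none had a median of 1237 bp (11104 peaks), next to 1330 bp for far peaks. Against the set without overlap, the log2 ratio of far to other medians was 0.19 in replicate 1 and -0.07 in replicate 2, and neither passed the threshold (exact permutation adjusted p = 0.355 and 0.594). Without H3K4me3 replicate 1, the ratio in replicate 1 turned to 0.22 and passed (exact permutation adjusted p = 0.00132). Far peaks were therefore not shown to be narrower than H3K27me3 peaks without H3K4me3.

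Between the subgenomes, far peaks had a median width of 1341 bp on A chromosomes, against 1323 bp on D chromosomes. The log2 ratio of A to D medians was 0.08 ± 0.47, higher on A in 8 of 13 pairs, a mean below the spread between pairs (exact permutation p = 0.570, adjusted p = 0.570). Median widths per chromosome ranged from 520 bp on A13 (7 peaks) to 3680.5 bp on A03 (6 peaks), so that chromosomes with few far peaks gave the extreme values. For other peaks the medians ranged from 1286 to 2078 bp.

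Whether far peaks were found again less often in the second library depended on the setting. Of the 454 replicate 1 peaks at least 50 kb from H3K4me3, 408 overlapped the broad replicate 2 list (89.9%, 86.7 to 92.5%), against 18463 of 20295 remaining peaks (91.0%, 90.6 to 91.4%). The mean difference over pairs was -1.70 ± 5.83 percentage points, lower in 8 of 13 pairs, and did not pass (exact permutation p = 0.307, adjusted p = 0.346). Where replicate 2 was required to cover at least 50% of a peak the difference came to -5.74 points (exact permutation adjusted p = 0.0193), and it was -3.06 points with a width minimum of 500 bp in all lists (exact permutation adjusted p = 0.00714), both of which passed. With a distance of 100 kb it was -8.45 points over 10 pairs and did not pass (exact permutation adjusted p = 0.0732). The 46 peaks that were not found again had a median width of 445 bp and none exceeded 1506 bp. Of the remaining replicate 1 peaks that overlapped no H3K4me3, 89.0% (88.4 to 89.5%) were found again. Against this set the mean difference was 0.286 points and did not pass (exact permutation adjusted p = 0.864). That comparison was added after the data were seen.

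How fully the second library covered a peak is given as a description, with no test, since the rule used overlap with the same list. The broad replicate 2 list covered 80.4% of the bases of a far peak in the mean (median 89.0%) and 85.1% of an other peak (median 94.5%). All bases were covered for 89 far peaks (21.8%) and 5560 other peaks (30.1%). The difference was -3.70 ± 3.54 percentage points over pairs, lower in 11 of 13. It was -1.09 points with a distance of 25 kb, -10.9 points with 100 kb, where 8 pairs had enough far peaks, and -1.59 points where replicate 2 had to cover at least 50% of a peak. When the roles of the lists were exchanged and members came from the broad replicate 2 list, the share of them covered by replicate 1 was 2.91 points higher for far peaks, so the direction depends on which library supplies the peaks. A single replicate 2 peak lay under 380 of the 408 far peaks, and 28 had more than 1, up to 4. Conversely, 40 far peaks (9.80%) shared a replicate 2 peak with another far peak, so that members are not all separate regions.

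Far peaks stood more alone than other peaks. Another repeated H3K27me3 peak lay within 10 kb of 211 far peaks (51.7%, 46.7 to 56.7%), against 12077 other peaks (65.4%, 64.7 to 66.1%). The median distance to the nearest repeated peak was 7.39 kb for far peaks and 2.94 kb for other peaks. The difference in share was -16.6 ± 17.1 percentage points over pairs, lower in 11 of 13 (exact permutation p = 0.00635, adjusted p = 0.0114). Leaving out H3K4me3 replicate 1 gave a difference of -0.722 points, which did not pass (exact permutation adjusted p = 0.668). With a distance of 100 kb it was -12.3 points over 8 pairs and did not pass (exact permutation adjusted p = 0.158), and with a width minimum of 500 bp it was -5.48 points and passed (exact permutation adjusted p = 0.0352). A neighbour within 10 kb was found for 96 of 207 far peaks on A (46.4%) and 115 of 201 on D chromosomes (57.2%). The difference from other peaks was -21.1 points on A and -12.1 points on D chromosomes, and these effects did not differ beyond the spread between pairs (exact permutation adjusted p = 0.399, a test added after the data were seen). No repeated H3K27me3 peak lay within 100 kb of 92 far peaks (22.5%) and of 1338 other peaks (7.25%). Of other peaks that overlapped H3K4me3, 56.3% had a neighbour within 10 kb. Of repeated peaks 0 to 5 kb from H3K4me3 without overlap, 72.7% on A and 76.6% on D chromosomes had one. At 25 to 50 kb these shares were 51.7% and 59.6%. The share thus fell with distance already below 50 kb and is not particular to far peaks.

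**Figure D4:**
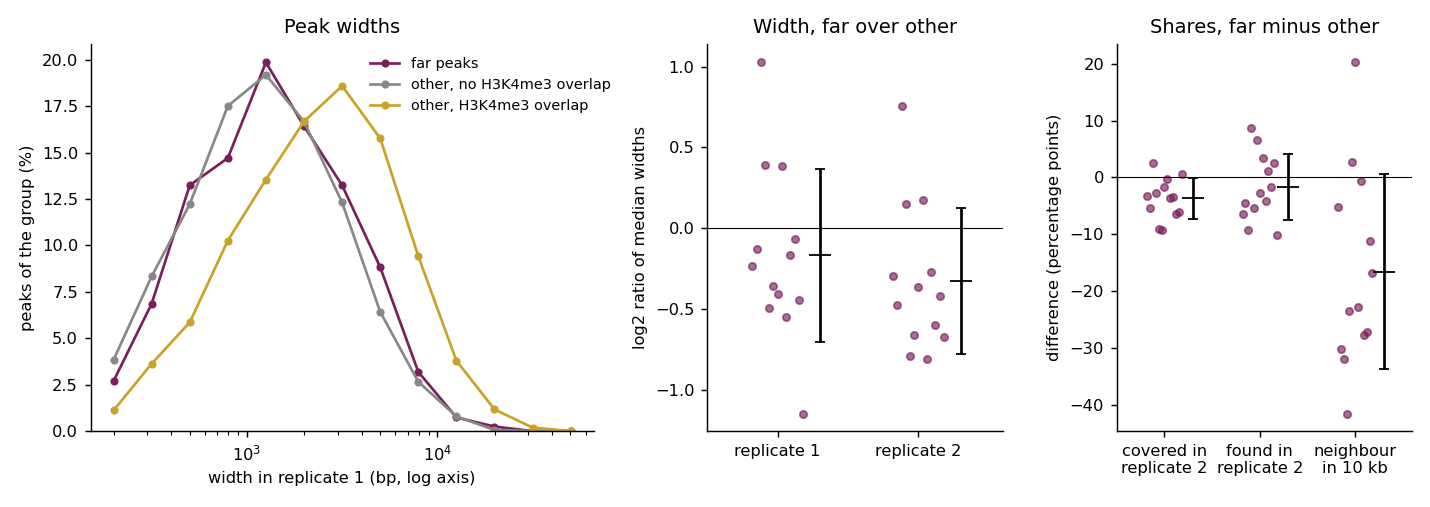
Left, widths of far peaks, of other repeated peaks without H3K4me3 overlap and of those with it (bp, log axis, percent of each group per bin). Middle and right, values per chromosome pair (points) with mean and SD (bars) for log2 ratios of median widths and for differences in percentage points, where the share with a neighbour within 10 kb averaged -16.6 points.

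The 408 far peaks lay in 251 stretches between neighbouring H3K4me3 peaks, out of 3822 stretches of at least 100 kb, so that 6.57% of the stretches long enough to hold a far peak held one. The share was 5.48% on A (137 of 2499) and 8.62% on D chromosomes (114 of 1323). A single far peak was found in 157 stretches, 2 in 60 and at least 3 in 34. Stretches with far peaks had a median length of 230 kb on A and 185 kb on D chromosomes, and those without had medians of 178 kb on A and 142 kb on D chromosomes. Longer stretches hold more sequence at least 50 kb from both ends, so the rule favours this direction, and no test was made. The shares of stretches were not set against that sequence. The longest stretch without H3K4me3 spanned 2230 kb on A and 940.4 kb on D chromosomes.

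The stretch with the most far peaks was on chromosome D11 (59010384 to 59198885, 188.5 kb) and held 10. They began with a peak of 10938 bp (59065649 to 59076586), the widest far peak of the D subgenome. The others were 659, 715, 1972, 593, 6789, 2176, 5558, 232 and 460 bp wide, the last ending at 59143715. The broad replicate 2 list covered between 68.5 and 100% of each. H3K27me3 also lay closer to the H3K4me3 peaks at both ends of this stretch, so the 10 far peaks were the middle of a longer run. On A chromosomes the highest number was 5, on A07 (14021646 to 14203254, 181.6 kb). They fell into a group of 1994, 1147 and 4671 bp and a group of 505 and 3256 bp, and replicate 2 covered 48.4% of the peak of 1147 bp and between 68.6 and 100% of the remaining 4.

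**Figure D5:**
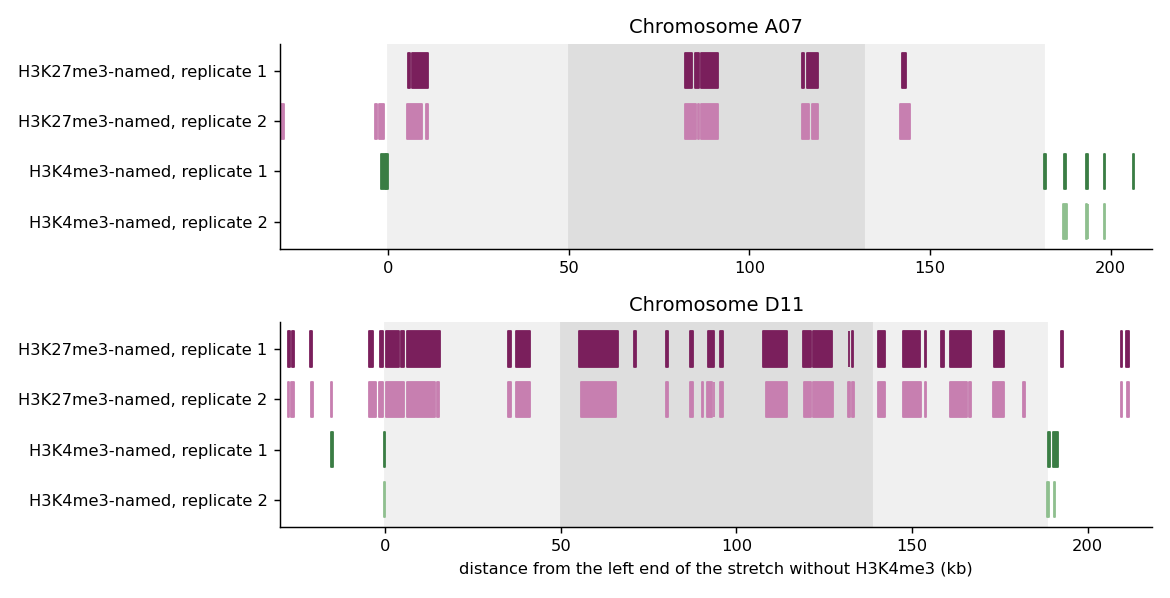
Peaks of the 4 lists, by the mark in the name they were deposited under, in the stretches without H3K4me3 that held the most far peaks on A07 (top, 5) and D11 (bottom, 10), in kb from the left end of the stretch. The light band is the stretch and the dark band the part at least 50 kb from H3K4me3. On D11 the H3K27me3 peaks run on beyond the dark band on both sides.

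The widest far peak of all spanned 17725 bp on chromosome A03 (85851058 to 85868782), one of only 6 far peaks there. A single replicate 2 peak of 17295 bp (85851236 to 85868530) covered 97.6% of it. The nearest H3K4me3 replicate 1 peak was 60.6 kb away and the nearest one of the narrow replicate 2 list 141.9 kb away. No repeated H3K27me3 peak was closer than 35.7 kb, so this wide peak stood alone. The next widest of the A subgenome were both on A09, with 7841 bp (4897272 to 4905112, 99.2% covered in replicate 2) and 7328 bp (21431434 to 21438761, 87.9% covered). The one of 7841 bp had a neighbour at 0.733 kb, while that of 7328 bp had none closer than 1146 kb. On D chromosomes, the 10938 bp peak of D11 was followed by peaks of 10740 bp on D11 (51075700 to 51086439, 91.1% covered) and 10145 bp on D03 (45351625 to 45361769, 99.0% covered).

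The 4 named far peaks most distant from H3K4me3 were between 547 and 1751 bp wide. On A chromosomes, a peak of 1021 bp on A08 (24038905 to 24039925) was 454.6 kb from the nearest H3K4me3 peak, and the closest repeated H3K27me3 peak was 449.3 kb away. Replicate 2 covered it to 100%, with a peak of 1045 bp. A peak of 1751 bp on A11 (75881198 to 75882948), 329.5 kb away, was covered to 95.6% and had a neighbour at 2.28 kb. On D chromosomes, a peak of 606 bp on D10 (38545852 to 38546457) was 381.2 kb away and covered to 85.5%, and a peak of 547 bp on D08 (21808815 to 21809361) was 282.1 kb away and covered to 98.2%. The replicate 2 peaks under these on A11, D10 and D08 were 1744, 536 and 559 bp wide. Of the 4, the peak on A11 was wider than the far peak median of 1330 bp and the others were narrower. The narrowest far peaks were 200 bp on A12 (41755193 to 41755392) and 212 bp on D06 (14645017 to 14645228), covered to 72.5 and 100% by replicate 2 peaks of 795 and 1449 bp.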

How the data were processed

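Per the published methods, the authors trimmed reads with fastp, aligned them with Bowtie2 to a published TM-1 genome, removed duplicates with Picard and poorly mapped reads with samtools, and called peaks with MACS2, in broad mode for H3K27me3 and narrow mode for H3K4me3. The authors based their analyses on replicate 1 and used replicate 2 to check peaks. Versions are not given in the sources used here. The deposited lists hold chromosome, start and end of each peak in bp, without score or signal. The read depth behind a peak is therefore unknown, and a stricter threshold could not be set. The paper gives total and uniquely mapped reads per library, which were not used here. Broad calling decides where neighbouring stretches are joined and thus sets peak widths and neighbours.

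Samples were grouped by their labels, but the replicate 2 lists were used by the mark in their deposited names. Peaks on scaffolds were left out. Overlaps and distances were computed in Python 3.11.15 with numpy 2.4.6 and scipy 1.17.1 and compared with bedtools 2.31.1, where 0 of 20749 overlaps and 0 of 20749 distances differed. Chromosome length was taken between the outermost peaks of the 4 lists. Values per chromosome with at least 5 far peaks were averaged over the A and D chromosome of a pair, 0.5 was added to far peak numbers before logarithms, and the mean over 13 pairs was tested by all 8192 sign patterns, with Benjamini-Hochberg adjustment over 9 tests, of which that on replicate 2 coverage is given as a description only. The tests were checked on simulated data in which all chromosomes had equal lengths of sequence and peaks were drawn independently. The check therefore does not cover the unequal lengths and grouped peaks of the real lists.

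The far peaks, the tests and the rule for named regions (the 3 widest, the 2 most distant and the narrowest of each subgenome, those next to the threshold, the stretch with the most far peaks, and the chromosomes with the highest and lowest numbers) were chosen with earlier results of these data known. Alternatives covered distances, overlap, widths, each list, each chromosome pair, crossed pairs 2 and 3, minimum numbers, added constants and the comparison set.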

Additional observations from a re-analysis of the deposited data

Results flagged for a closer look

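The A to D ratio of peak density differed between far and other peaks, with a log2 difference of -1.51 ± 0.92 over 13 pairs, lower for far peaks in 12 of 13 (exact permutation p = 0.000732, adjusted p = 0.00220). It drew attention because the same comparison of subgenomes gave unequal values for the peaks near to and far from H3K4me3. By number of peaks alone the difference was 0.36 and did not pass (exact permutation adjusted p = 0.395). A and D densities already drew apart below 50 kb. Without H3K4me3 overlap there were 12.8 repeated peaks per Mb on A and 13.8 on D chromosomes at 0 to 5 kb. At 25 to 50 kb there were 1.91 on A and 4.42 on D, so a low ratio is not particular to far peaks. The densities count every base, and how much of the sequence reads could be placed on was not measured.

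Scaffolds, which no comparison used, held 2443 repeated H3K27me3 peaks, and 536 of them (21.9%, 20.3 to 23.6%, exact binomial) lay on scaffolds without any H3K4me3 peak. Their median width was 681 bp. How far they are from H3K4me3 on the chromosomes is unknown, so they were not added to the far peaks.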

How the results depend on the processing

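No paired analysis was possible because no libraries were compared between groups, so that replicate numbers pair nothing here, and the pairs tested were A and D chromosomes. Of 235 alternative values, 193 were counted as the same, which for tested values meant the same direction and side of the threshold. The 193 include 4 numbers of far peaks and 8 positions, which have no test. They also include comparisons within chromosomes under crossed pairs 2 and 3, where the mean cannot change. The number of far peaks was 1240 at 25 kb, 107 at 100 kb, 1349 with a width minimum of 500 bp and 1 with marks by sample labels. Leaving out 1 list gave 418 to 3181, the highest without H3K4me3 replicate 1. The log2 ratio of far to other widths in replicate 1 was -0.15 at 25 kb (passed), 0.0024 with the width minimum, 0.19 against other peaks without H3K4me3 overlap, -0.34 by mean width (passed), -0.25 with at least 10 far peaks per chromosome (passed), and -0.27 to 0.22 with 1 list or chromosome pair left out. In replicate 2 it was -0.21 with 50% overlap, -0.11 with the width minimum, -0.072 against peaks without H3K4me3 overlap and -0.42 to -0.028 with 1 list or pair left out, and none of the first 3 passed. The difference in replicate 2 coverage was -1.09 points at 25 kb, -10.9 at 100 kb, -1.59 with 50% overlap and -4.21 to 2.91 with 1 list or pair left out. The share found again differed by -5.74 points with 50% overlap and -3.06 with the width minimum, both of which passed, and by 0.286 against replicate 1 peaks without H3K4me3 overlap, a comparison added after the data were seen. The neighbour share differed by -12.3 points at 100 kb, which did not pass, by -5.48 with the width minimum and by -19.6 to -0.722 points with 1 list or pair left out. The A to D density ratio reversed only by number of peaks (0.061, and 0.36 for far minus other). The A to D width ratio of far peaks, never past the threshold, was -0.073 at 25 kb, -0.038 with the width minimum, -0.017 by mean width and -0.071 to 0.16 with 1 list or pair left out. The causes were not tested. The lists hold no depth, which limits all values to called peaks.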
